A study of Mus musculus with 26 samples.

Results

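Cytosolic ribosomal protein genes encode the protein components of the small (Rps) and large (Rpl, Rplp) subunits of the ribosome that translates nuclear mRNAs. Members were chosen by name: every mouse gene whose symbol is Rpl, Rps or Rplp followed by a number, with at most an ending a, l or x, and which has a probe set annotated with that symbol alone. Each gene was represented by its brightest probe set. This gave 58 genes of the 19938 measured, 30 of the large subunit, 19 of the small subunit, the 3 stalk proteins and 6 symbols that end in l. Another 23 symbols of the same form are listed as protein-coding in RefSeq and were not used: 16 of them, among them Rpl3, Rpl11, Rpl39 and Rps27, lay only on probe sets annotated with several symbols, and the other 7 were not analysed here. The mouse genome holds many processed copies of these genes, and array probes do not separate near-identical copies, so each value is uncertain as to the copy it measures.

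The samples were 26 Affymetrix arrays of murine Ba/F3/gp130 cells, a cytokine-dependent pro-B line that grows on interleukin-3 or on Hyper-IL-6, a fusion of IL-6 with its soluble receptor. All groups carried gp130, were kept on 10 ng/ml Hyper-IL-6, and were washed 4 times and starved without serum for 4 h. Stimulated cells received 100 ng/ml of purified protein for 2 h, as the labels name no other time. In the cells with the natural receptors IL-10R2 and IL-22Rα1, 4 arrays followed IL-22 and 4 were of untreated cells. In the cells with synthetic receptors, IL-10R2 carried a single-domain antibody (VHH) against mCherry and IL-22Rα1 one against GFP. There, 6 arrays followed GFP-mCherry, a fusion of both fluorescent proteins, 6 followed mCherry-Fc, mCherry joined to an antibody Fc part, and 6 were of untreated cells. GFP-mCherry can be bound by both receptor chains and mCherry-Fc by the IL-10R2 chain. All samples descend from 1 cell line, so natural and synthetic receptors were compared between derivatives of it. No label says that replicates came from separate cultures, so p-values measure the spread between these samples, which may be technical. In bulk RNA, fewer cells of a kind and less RNA per cell cannot be told apart.

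Ribosomal proteins are made in near-equal numbers, one of most kinds per ribosome, and their mRNAs are among the most abundant of growing cells. Most of these mRNAs begin with a terminal oligopyrimidine (TOP) tract, through which growth signals acting on mTORC1 control how well they are translated, while their amount often changes little. In mammals their genes are transcribed by RNA polymerase II from short promoters that often hold sites for ETS family factors such as GABPA, and MYC is known to raise both ribosome biogenesis genes and ribosomal protein genes.

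Promoters were read from RefSeq (GRCm38.p6), as windows of 250 bases before to 50 after each annotated start. The table held 55 windows for 46 of the 58 members. The ETS core CGGAAG, on either strand, occurred in 34 of these 55 windows (61.8%), against 16.9% of all 32851 promoter windows of the table. The E-box CACGTG, the sequence that MYC with MAX binds, was found in 7 of the 55 windows (12.7%), against 7.15% of all windows. A TOP-like run, a C followed by 4 bases that are each C or T and starting within 10 bases of the annotated start, was found in 30 (54.5%), against 30.7%. The last 70 bases before the start and the first 20 after it are shown for genes the results turn on, with CGGAAG in capitals.

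Rpl38 (chr11:114668510-114668599, plus strand): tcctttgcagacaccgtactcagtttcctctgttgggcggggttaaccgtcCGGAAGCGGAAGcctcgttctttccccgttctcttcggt
Rps21 (chr2:180257309-180257398, plus strand): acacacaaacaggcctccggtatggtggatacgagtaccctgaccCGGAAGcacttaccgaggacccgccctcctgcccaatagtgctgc
Rps10 (chr17:27635225-27635314, minus strand): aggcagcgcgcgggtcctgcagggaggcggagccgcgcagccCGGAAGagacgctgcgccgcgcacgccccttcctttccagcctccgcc
Rps27l (chr9:66946016-66946105, plus strand): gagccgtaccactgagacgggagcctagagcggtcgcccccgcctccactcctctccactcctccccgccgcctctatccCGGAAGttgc
Rpl24 (chr16:55966205-55966294, plus strand): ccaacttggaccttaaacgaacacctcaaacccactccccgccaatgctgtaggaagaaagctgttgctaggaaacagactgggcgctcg
Rpl28 (chr7:4792895-4792984, plus strand): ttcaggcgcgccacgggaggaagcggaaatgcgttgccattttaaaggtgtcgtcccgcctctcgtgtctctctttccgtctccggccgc

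Rpl38, Rps21, Rps10, Rps27l and Rpl24 are shown because their mRNAs rose with both synthetic ligands, and Rpl28 because it is a bright member that passed no test. Rpl38 has a tandem of the core just upstream of its start. Rpl24 holds the core in its full window but outside the bases shown, and Rpl28 holds none. Of the windows of members that rose with GFP-mCherry, 65.6% held CGGAAG, against 56.5% of the windows of the other members. For the E-box these shares were 18.8% (6 of 32 windows) and 4.35% (1 of 23), and for the TOP-like run 56.2% and 52.2%. The splits were not tested. The matches describe these letters only, and binding was not measured.

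The deposited values are log2 intensities, so a difference of 1 is 2-fold. Array medians lay between 6.06 and 6.28, and arrays of one group correlated at r 0.981 to 0.994 across genes. Of 14 measured markers of the labelled cell type 6 were brighter than the median gene. Among them Cd79a (9.55), Cd79b (8.98), Il3ra (9.01), Csf2rb (12.08) and Ptprc (10.67) were bright, while the defining pro-B genes Vpreb1, Ebf1, Pax5, Rag1 and Dntt were dim (4.46 to 5.39 over all arrays, against a median of 6.53 for all genes). Of the markers of other lineages, all 6 measured T cell genes were below the median gene, while 3 of 8 myeloid, 3 of 4 erythroid and 2 of 5 mast cell genes were above it, such as Gata2 (12.22), Tfrc (11.10) and Prtn3 (10.55), and the group means of the myeloid marker Itgam ran between 5.42 and 10.34. Their part in the results was not tested. Socs3, a feedback gene of cytokine receptors, was higher by 4.30 with IL-22, by 1.02 with GFP-mCherry and by 0.94 with mCherry-Fc, each against its own untreated cells. Myc was higher by 0.57, 0.97 and 1.40 in these 3 comparisons (limma, adjusted p at most 1.67e-05).

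Ribosomal protein genes were bright: their median level was 11.89, and 44 of the 58 lay above the 90th percentile of all genes. Rpl28, a large subunit protein, averaged 13.54, Rpl21 of the same subunit 13.39, and the stalk base protein Rplp0 13.37. At the other end were 3 genes whose symbols mark them as paralogs, the testis paralogs Rpl10l (5.63) and Rpl39l (3.33) and the striated muscle paralog Rpl3l (5.29). These were the only members below a level of 6. Probes differ in brightness, so these levels do not order the mRNAs of different genes.

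**Figure D1:**
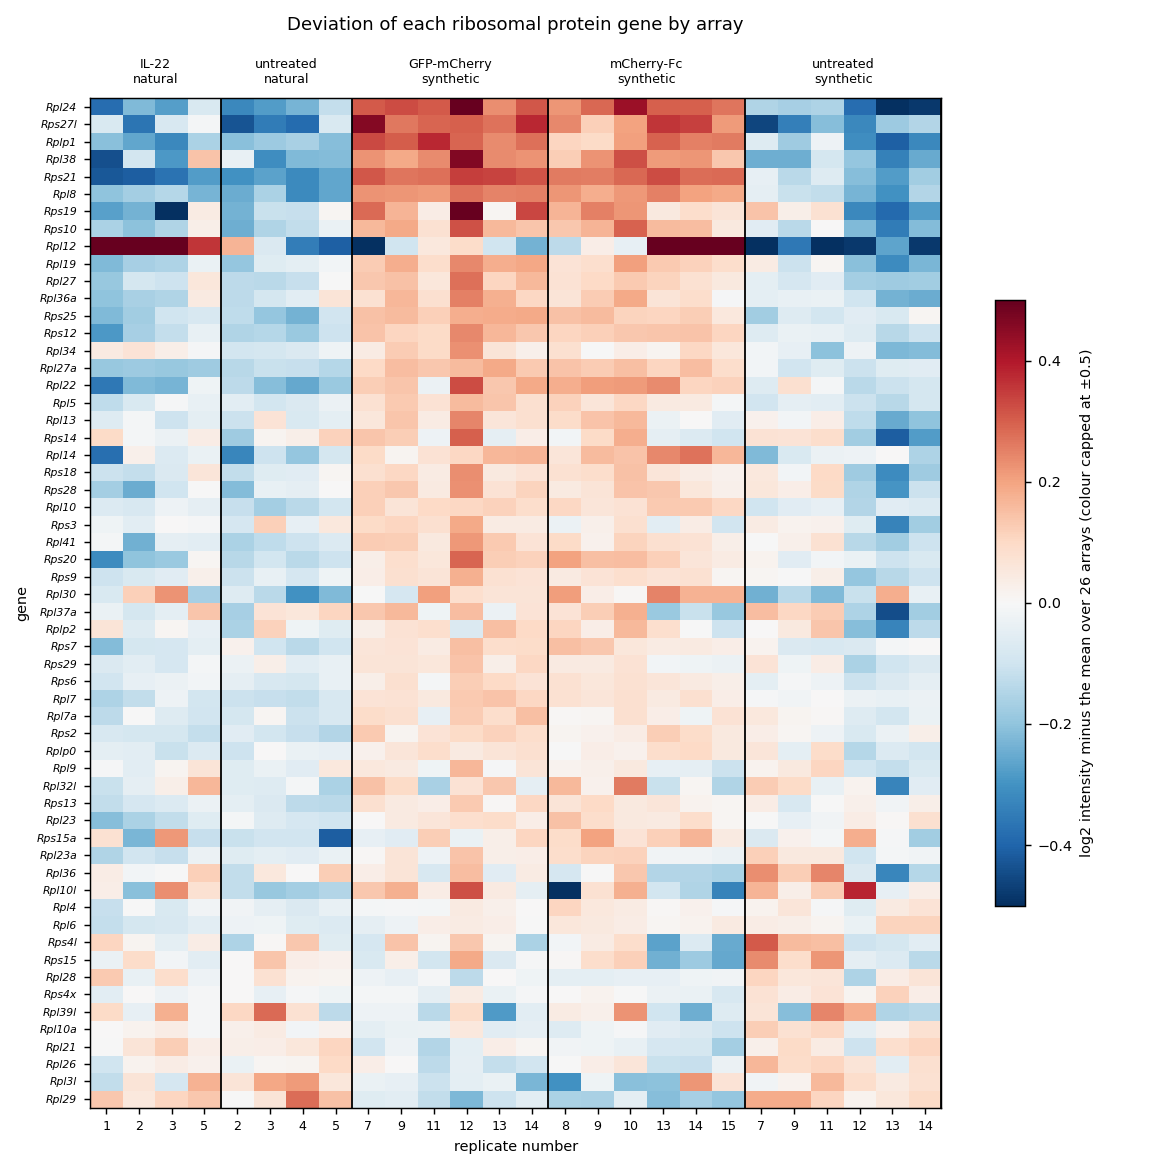
Each row is 1 of the 58 ribosomal protein genes and each column 1 of the 26 arrays, grouped by ligand and receptor and labelled by replicate number. The colour is the log2 intensity minus the gene's mean over all arrays, red above and blue below, capped at 0.5. The GFP-mCherry and mCherry-Fc arrays are mostly red in the upper rows, and in Rpl12, and more faintly in Rpl29, all 4 IL-22 arrays are above the gene's mean.

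With GFP-mCherry, 30 of the 58 ribosomal protein mRNAs rose and 2 fell against untreated synthetic receptor cells (limma, adjusted p below 0.05 over all 19938 genes). Over all genes 14.2% rose and 11.8% fell. Of the 1994 brightest genes, the 10% in which most members lie, 28.2% rose and 14.7% fell. The members' median difference was 0.15, against -0.04 over all genes and 0.05 over those 1994 genes. The changes were small, with quartiles at 0.03 and 0.22 and a whole range of -0.21 to 0.65. In 22 genes every GFP-mCherry array lay above every untreated array, as in 10% of all genes, and in 2 every array lay below (4.11% of all genes). Without GFP-mCherry replicate 12, on which several members stood apart, 22 rose.

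The rises were spread over both subunits. In the large subunit 15 of 30 rose and 2 fell, with a median of 0.16. In the small subunit 13 of 19 rose and none fell, also with a median of 0.16. Of the 3 stalk proteins only Rplp1 passed the test, and of the 6 symbols ending in l only Rps27l did. Among the 29 brighter members 16 rose, with a median of 0.12, and among the 29 dimmer ones 14 rose and 2 fell, with a median of 0.16.

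Rpl24, a large subunit protein at the contact with the small subunit and the gene of the mouse mutation belly spot and tail, moved most. Its level was lowest at 11.05, with a median of 11.12 and a highest value of 11.33, over the GFP-mCherry arrays, against 10.26, 10.54 and 10.66 over the untreated arrays. The groups did not overlap, and the difference was 0.65 ± 0.07 (SE; 11.15 ± 0.10 against 10.50 ± 0.18, SD, n = 6 each; limma adjusted p 1.3e-07), a 1.57-fold rise. Rps27l, the paralog of the small subunit protein Rps27 and a known p53 target, spanned 10.26 to 10.45 with a median of 10.29 with GFP-mCherry, against 9.53 to 9.84 with a median of 9.72 without ligand. It was 1.52-fold higher with no overlap (0.60 ± 0.07; limma adjusted p 2.84e-07).

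Rplp1, one of the acidic stalk proteins that bring translation factors to the ribosome, spanned 13.23 to 13.37 (median 13.29) with GFP-mCherry and 12.58 to 12.96 (median 12.75) in untreated cells. It rose by 0.52 ± 0.06 (limma adjusted p 2.17e-07). Its partners gave smaller values: Rplp0, which anchors the stalk, differed by 0.09 (adjusted p 0.118) and Rplp2, the other acidic protein, by 0.14 (adjusted p 0.122), and for both the groups overlapped. Rpl38, the large subunit gene mutated in tail-short mice, spanned 11.51 to 11.78 (median 11.55) with the ligand, against 10.98 to 11.23 (median 11.07) without, a rise of 0.49 ± 0.07 (limma adjusted p 1.44e-05). Rps21, a small subunit protein, had narrow groups: 11.85 to 11.93 (median 11.90) with GFP-mCherry against 11.30 to 11.54 (median 11.43), a rise of 0.46 ± 0.04 (limma adjusted p 1.84e-08).

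**Figure D2:**
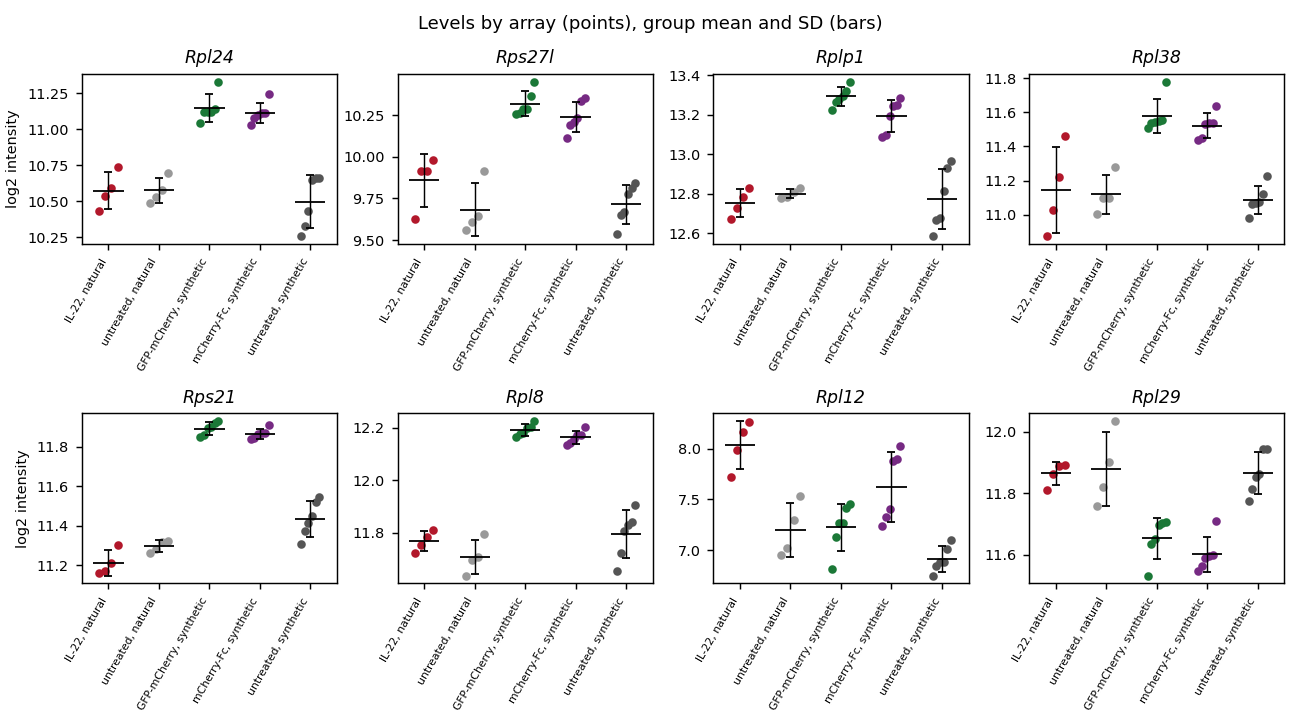
Log2 intensity of 8 ribosomal protein genes on each array (points, sorted by level within a group), with the group mean and SD as bars, for IL-22 and untreated natural receptor cells and for GFP-mCherry, mCherry-Fc and untreated synthetic receptor cells. In Rpl24, Rps27l, Rplp1, Rpl38, Rps21 and Rpl8 both synthetic ligand groups lie above untreated cells without overlap. In Rpl12 the IL-22 group has the highest mean and overlaps the mCherry-Fc arrays, and in Rpl29 both synthetic ligand groups lie below untreated cells.

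Other rises included Rpl8, which lies near the peptidyl transferase centre (0.40), and Rps19 (0.36) and Rps10 (0.34), both known from Diamond-Blackfan anaemia in humans. The Rps19 groups overlapped, 9.41 to 9.95 against 9.01 to 9.54. Its difference among arrays numbered up to 11 minus that among higher numbers was -0.55 (limma adjusted p 0.0931). Rps19 did not pass in all 6 settings described below. Rpl10, needed for the last step of large subunit maturation, rose by 0.18, and Rpl5, which carries the 5S rRNA and can bind MDM2, by 0.20. Rps6, the substrate of the S6 kinases, rose by 0.12 (limma adjusted p 0.0274), and its groups overlapped, 12.69 to 12.82 (median 12.77) against 12.59 to 12.69 (median 12.65). The Rps6 difference was 0.05 with quantile normalization (adjusted p 0.269) and 0.06 among arrays numbered up to 11 (0.385), and neither passed. The call was also lost with the replicate number as a block (adjusted p 0.0528) and with the mean over the 8 probe sets of Rps6 (0.10; 0.0754), and leaving out GFP-mCherry replicate 12 or 13 or untreated replicate 12 gave adjusted p 0.0582 to 0.0657.

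Rpl29, a small basic protein of the large subunit, fell. It spanned 11.53 to 11.71 (median 11.68) with GFP-mCherry, against 11.77 to 11.94 (median 11.86) in untreated cells, a difference of -0.21 ± 0.05 (limma adjusted p 0.00259) without overlap. Among the arrays with high replicate numbers alone the difference was -0.18 and missed the threshold (limma adjusted p 0.0645). Rpl26, known to bind p53 mRNA, differed by -0.14 (limma adjusted p 0.0392). Its groups overlapped, 8.09 to 8.25 (median 8.15) against 8.17 to 8.39 (median 8.30), and leaving out GFP-mCherry replicate 11, 12, 13 or 14 or untreated replicate 7, 9, 11, 12 or 14 lost that call (adjusted p 0.0526 to 0.0939). The paralogs Rpl10l (0.00), Rpl3l (-0.14) and Rpl39l (-0.07) passed no test.

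With mCherry-Fc, 24 of the 58 rose and 3 fell against the same untreated arrays. Over all genes 14% rose and 13% fell, and of the 1994 brightest genes 26% rose and 9.48% fell. The members' median difference was 0.12, against -0.04 over all genes and 0.06 over those 1994 genes. In 23 members the mCherry-Fc arrays all lay above the untreated arrays (7.85% of all genes) and in 1 all below (3.46% of all genes). By subunit, 14 of 30 large and 8 of 19 small subunit genes rose, with medians of 0.13 and 0.13. With the replicate number as a block, 16 rose and 1 fell. That count rests on fewer arrays, as mCherry-Fc replicates 8, 10 and 15 have no same-numbered partner and add nothing to it. Because both synthetic ligands were set against the same 6 untreated arrays, their values are given side by side and their likeness is not a result.

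Rpl24 spanned 11.03 to 11.24 (median 11.10) with mCherry-Fc, 0.61 ± 0.07 above untreated cells, where GFP-mCherry gave 0.65. The corresponding differences with mCherry-Fc were 0.52 for Rps27l, 0.43 for Rps21, 0.43 for Rpl38, 0.42 for Rplp1 and 0.37 for Rpl8 (limma adjusted p at most 0.000108), and 0.60, 0.46, 0.49, 0.52 and 0.40 with GFP-mCherry. Rpl10 rose by 0.18, Rpl5 by 0.15 and Rps6 by 0.11 (limma adjusted p 0.00103, 0.00734 and 0.0387). The calls of Rpl5 and Rps6 were lost with the replicate block (adjusted p 0.0988 and 0.277), and that of Rps6 also without mCherry-Fc replicate 8, 9, 10, 13 or 14 or untreated replicate 7, 12 or 14 (0.0507 to 0.0791). Rplp0 (0.08) and Rplp2 (0.13) again passed no test.

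**Figure D3:**
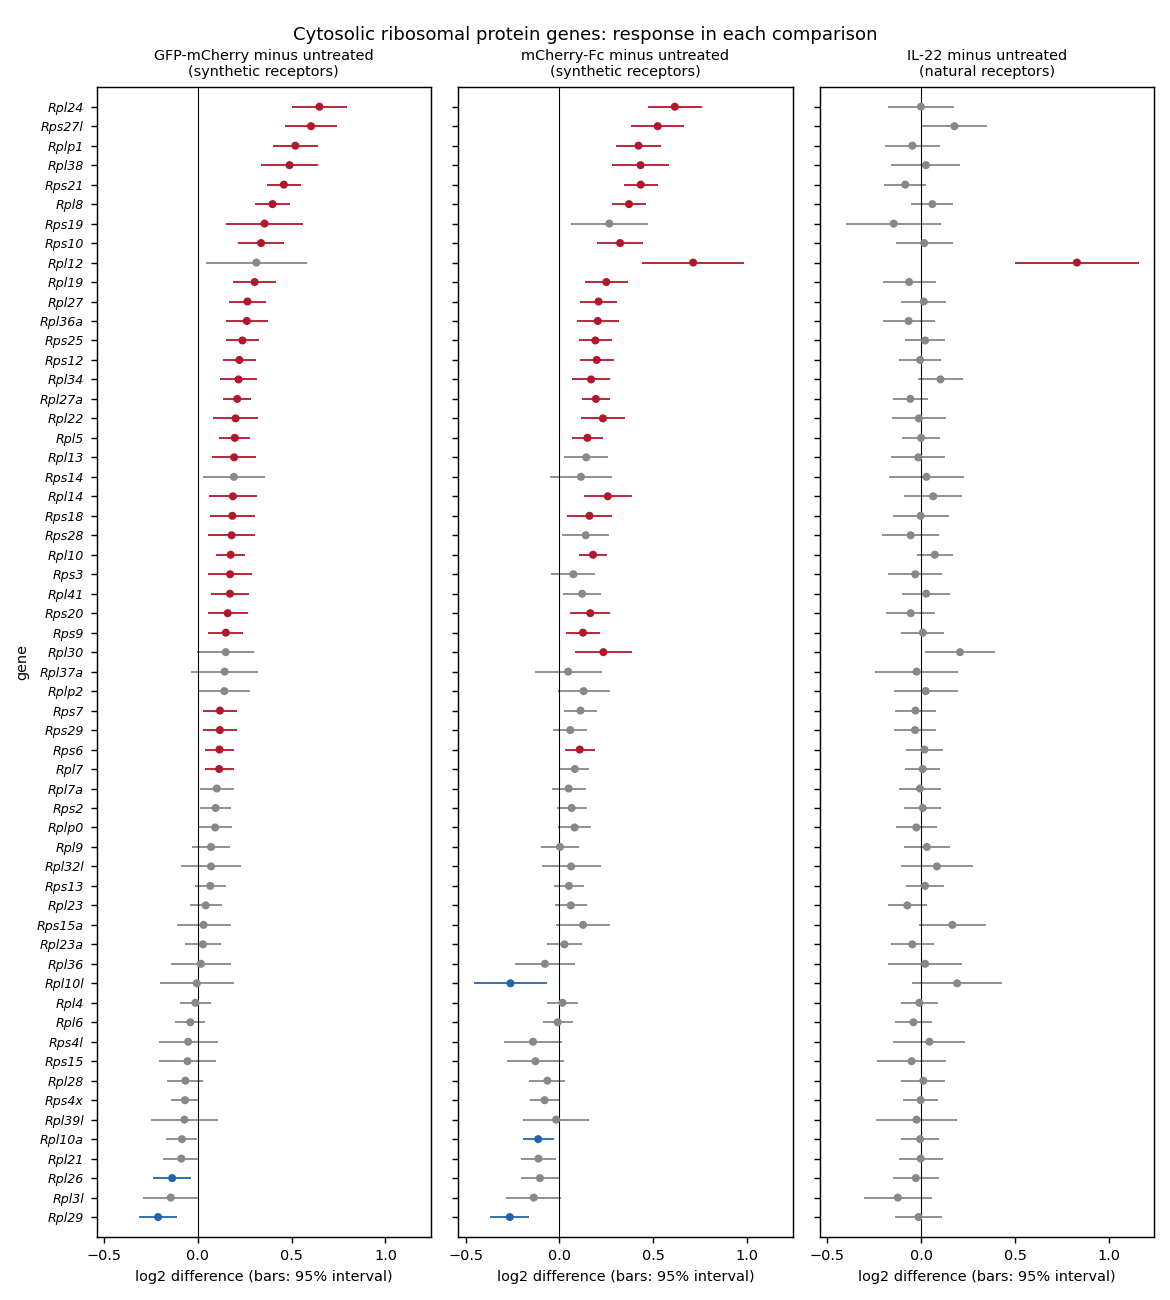
Log2 difference of each of the 58 ribosomal protein genes with its 95% interval, in GFP-mCherry minus untreated, mCherry-Fc minus untreated and IL-22 minus untreated cells, sorted by the first. Genes that rose at an adjusted p below 0.05 are red, those that fell blue and the others grey. There are 30 red and 2 blue genes with GFP-mCherry, 24 and 3 with mCherry-Fc, and 1 red gene with IL-22.

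The largest member difference with mCherry-Fc was that of Rpl12, a protein at the base of the stalk. It spanned 7.23 to 8.02 (median 7.64), against 6.75 to 7.10 (median 6.88) in untreated cells, a difference of 0.71 ± 0.13 (limma adjusted p 0.000299). The mCherry-Fc arrays fell into a higher and a lower set: replicates 13, 14 and 15 lay at the top, and the difference was 0.98 among arrays numbered 12 to 15 and 0.45 among those numbered 7 to 11. The difference between these 2 values was 0.53 in size and did not pass the test (limma adjusted p 0.097). With GFP-mCherry, Rpl12 spanned 6.81 to 7.46 (median 7.27), 0.31 above untreated cells (adjusted p 0.0812).

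Rpl29 fell with mCherry-Fc by 0.26 ± 0.05 (limma adjusted p 0.00039), spanning 11.55 to 11.71 (median 11.59), without overlap. Rpl10l fell by 0.26 (limma adjusted p 0.0443) with a mean level of 5.49, against 5.75 in untreated cells, and Rpl10a, the protein of the L1 stalk, by 0.11 (adjusted p 0.0371). Neither call was stable. With the replicate block the adjusted p was 0.457 for Rpl10l and 0.26 for Rpl10a, and leaving out 1 array lost them: for Rpl10l mCherry-Fc replicate 8, 13, 14 or 15 or untreated replicate 7, 9, 11 or 12 (adjusted p 0.0513 to 0.13), and for Rpl10a mCherry-Fc replicate 8, 13, 14 or 15 or untreated replicate 7, 9, 11 or 14 (0.0568 to 0.0849).

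With IL-22 acting on the natural receptors, 1 of the 58 rose and none fell against untreated natural receptor cells (limma). An unadjusted p below 0.05 was reached by 3 members, and the share of all genes there was not counted. At the adjusted threshold 5.39% of all genes rose and 6.03% fell. Of the 1994 brightest genes 8.43% rose and 8.43% fell, with a median of -0.01. The members' median difference was 0.00, against -0.02 over all genes, with quartiles at -0.03 and 0.03. The gene that rose was Rpl12. It read 7.98, 8.16, 8.26 and 7.72 on the IL-22 arrays, against 7.54, 7.30, 7.02 and 6.96 on the untreated arrays. Every IL-22 array lay above every untreated array, and the difference was 0.83 ± 0.16 (SE; 8.03 ± 0.24 against 7.20 ± 0.27, SD, n = 4 each; limma adjusted p 0.000503), a 1.78-fold rise. Arrays of the 2 groups did not overlap in 3 members with IL-22 higher and 1 lower, as in 5.03% and 6.34% of all genes.

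The genes with the largest rises in synthetic receptor cells passed no test here. Rpl24 read 10.43, 10.59, 10.54 and 10.74 with IL-22 and 10.49, 10.53, 10.58 and 10.70 without, and Rps21 read 11.16, 11.17, 11.21 and 11.30 with IL-22 against 11.28, 11.32, 11.26 and 11.32. The interval of the Rpl24 difference was -0.18 to 0.18. Rps27l differed by 0.18 (95% interval 0.00 to 0.35; adjusted p 0.224), Rplp1 by -0.05, Rplp0 by -0.03, Rplp2 by 0.02, Rpl5 by 0.00, Rps6 by 0.02 and Rpl10 by 0.07. The paralogs Rpl10l (0.19), Rpl3l (-0.12) and Rpl39l also passed no test.

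The difference between the responses was tested directly. The GFP-mCherry response exceeded the IL-22 response in 15 of the 58 genes and was lower in none, against 9.23% and 4.4% of all genes, with a median of 0.12 (all genes -0.02). Of the 1994 brightest genes 15.2% were higher, with a median of 0.07. The largest were Rpl24 (0.65 ± 0.11; limma adjusted p 0.000139), Rplp1 (0.57 ± 0.09; 7.16e-05), Rps21 (0.54 ± 0.07; 2.49e-06), Rps19 (0.50 ± 0.16; 0.0333) and Rpl38 (0.46 ± 0.12; 0.00643). The mCherry-Fc response exceeded it in 11 and was lower in 2, Rpl10l (-0.45) and Rpl29 (-0.25), against 8.76% and 4.6% of all genes. Its median over the members was 0.09, and of the 1994 brightest genes 13.2% were higher, with a median of 0.08. Its largest were Rpl24 (0.62), Rps21 (0.52), Rplp1 (0.47), Rpl38 (0.41) and Rps27l (0.35). With the replicate block these counts were 9 and 1 for GFP-mCherry and 6 and 1 for mCherry-Fc. Rps19 was among the calls lost (limma adjusted p 0.0646). Arrays without a same-numbered partner add nothing to these blocked differences. Rpl24, Rplp1 and Rps21 passed in both comparisons under the deposited scaling, both rescalings, the replicate block and within low replicate numbers. The high numbers hold 1 IL-22 array, so the IL-22 response has no spread of its own there and only sizes are given. Within high replicate numbers the Rpl38 differences from the IL-22 response were 0.21 for GFP-mCherry and 0.09 for mCherry-Fc, and those of Rps27l 0.31 and 0.30. Rps19 did not pass under quantile normalization (adjusted p 0.121) or within low numbers, where its difference was 0.27. Leaving out 1 array lost the call of Rps19 for GFP-mCherry (IL-22 replicate 1 or 3, untreated natural 3 or 5, GFP-mCherry 12 or 14, or untreated synthetic 12, 13 or 14; adjusted p 0.0505 to 0.107) and, for mCherry-Fc, that of Rpl38 (IL-22 replicate 1 or 3 or untreated natural 2; 0.0518 to 0.0641) and of Rps27l (IL-22 replicate 2, untreated natural 5, untreated synthetic 7 or 9, or mCherry-Fc 13 or 14; 0.0528 to 0.0971). The 2 lower calls were lost without any of 9 arrays for Rpl29 (0.0511 to 0.0989) and any of 15 for Rpl10l (0.0509 to 0.12), and under both rescalings (0.0522 to 0.176). Both sets of differences use the same IL-22 arrays and the same untreated arrays, so passing in both is not independent. Receptor type and cell derivative cannot be told apart in these differences.

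GFP-mCherry and mCherry-Fc were compared with each other in the same cells, and none of the 58 genes passed the test (limma). An unadjusted p below 0.05 was reached by 2 members, and the share of all genes there was not counted. At the adjusted threshold 0.722% of all genes were higher and 0.371% lower with GFP-mCherry. With the replicate block none of the 58 passed either. The members' median difference was 0.03. The largest was that of Rpl12, whose level was 7.23 ± 0.23 with GFP-mCherry and 7.63 ± 0.34 with mCherry-Fc (SD, n = 6 each; difference -0.40, 95% interval -0.67 to -0.13; limma adjusted p 0.229). For Rpl24 the interval was -0.11 to 0.18 around 0.03, for Rplp1 -0.02 to 0.22 around 0.10, and for Rps21 it was -0.07 to 0.12. No member had groups that did not overlap (1.51% and 1.45% of all genes).

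Between untreated synthetic and untreated natural receptor cells, none of the 58 passed the test (limma). An unadjusted p below 0.05 was reached by 8 members, and the share of all genes there was not counted. At the adjusted threshold 8.6% of all genes were higher and 6.62% lower in synthetic receptor cells. The members' differences ran between -0.29 for Rpl12 and 0.27 for Rpl10l, with a median of 0.01. In 4 members every synthetic array lay higher and in none lower (5.19% and 4.86% of all genes). Rps21, whose level was 11.43 in untreated synthetic and 11.30 in untreated natural receptor cells, differed by 0.14 (adjusted p 0.0614).

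Many members have further probe sets, which were not used for the counts above. The 58 genes had 210 probe sets, and 38 genes had more than 1. With GFP-mCherry 115 of the 210 rose and 7 fell, and with mCherry-Fc 93 rose and 12 fell. The share over all single-symbol probe sets was not counted, so these counts stand without a background. In 34 of the 38 genes all probe sets differed in one direction with GFP-mCherry, and likewise in 34 with mCherry-Fc. All probe sets of the gene rose in 16 genes with GFP-mCherry and in 12 with mCherry-Fc, and in no gene did probe sets pass the test in opposite directions. The 3 probe sets of Rpl24 gave 0.57, 0.66 and 0.65 with GFP-mCherry and those of Rplp1 0.70 and 0.52, so the fainter one of Rplp1 gave the larger value. The values of 19 probe sets were identical to those of another and are not independent measurements. Rpl12, Rps27l and Rpl29 rest on 1 probe set each.

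**Figure D4:**
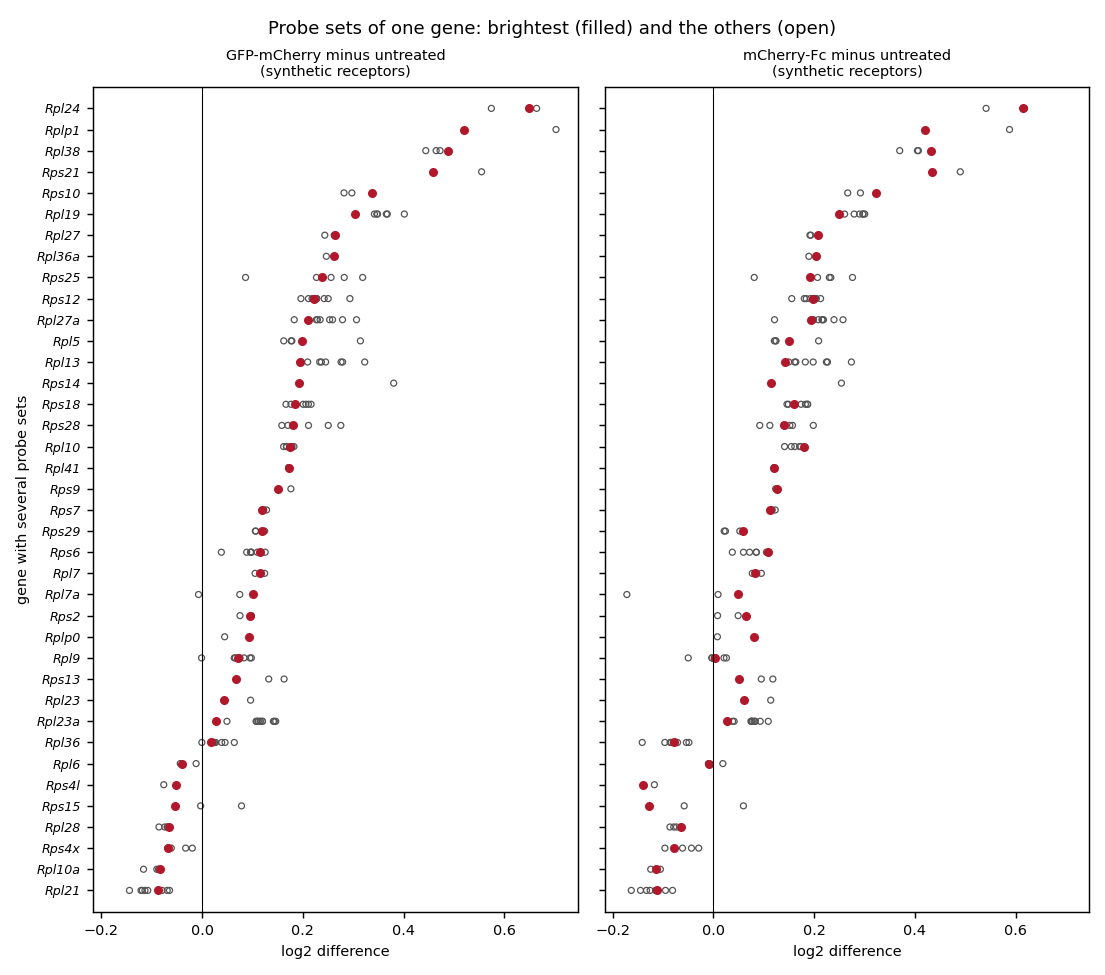
Log2 difference of every probe set of the 38 ribosomal protein genes with several, for GFP-mCherry minus untreated and mCherry-Fc minus untreated synthetic receptor cells. Filled points are the brightest probe set of a gene, which represents it elsewhere, and open points the others. The open points mostly lie close to the filled one, with a median range within a gene of 0.06 in both comparisons.

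Arrays with low replicate numbers (natural up to 3, synthetic up to 11) and high ones differed, most in untreated synthetic receptor cells. There the members' median deviation from their means was -0.01 to 0.02 on replicates 7, 9 and 11 and -0.11 to -0.09 on replicates 12, 13 and 14. On the GFP-mCherry arrays it was 0.05 to 0.08 among low and 0.07 to 0.15 among high numbers, and on the mCherry-Fc arrays 0.07 to 0.11 and 0.03 to 0.06. What the numbers stand for is not stated. Within low numbers 14 members rose with GFP-mCherry (median 0.06), and within high numbers 35 (median 0.22). With mCherry-Fc 18 and 22 rose (medians 0.08 and 0.14). No member's response to a synthetic ligand differed between the ranges at an adjusted p below 0.05 (limma), and no other gene's did. The members' median of low minus high was -0.15 with GFP-mCherry (all genes -0.02) and -0.06 with mCherry-Fc (all genes -0.03). The test therefore does not show that the ranges were alike. With IL-22 that median was -0.05 (all genes -0.02), with 1 IL-22 array in the high range. The scaling between arrays mattered as well. Quantile normalization left 17 higher and 5 lower with GFP-mCherry, and 16 and 4 with mCherry-Fc. Centring each array on its median gave 39 and 1, and 40 and 1. The shares over all genes within the number ranges and under the rescalings are not given here. These counts therefore do not show how the members stood to other genes there. All 30 members that rose with GFP-mCherry and all 24 with mCherry-Fc kept that sign in 6 settings (as deposited, 2 rescalings, 2 number ranges and the replicate block). In all 6 settings 13 of each passed, among them Rpl24, Rps27l, Rplp1, Rpl38, Rps21, Rpl8, Rps10 and Rpl10 in both. These settings reuse the same arrays and include the one that chose the members, so kept signs were likely beforehand. Other called genes were not counted in this way.

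Other genes of ribosome production were followed as lists, whose counts stand beside the shares over all genes, 14.2% higher and 11.8% lower with GFP-mCherry, 14% and 13% with mCherry-Fc, and 5.39% and 6.03% with IL-22. Of 39 ribosome biogenesis genes, which act in the nucleolus on rRNA and pre-ribosomes, 29 rose and 1 fell with GFP-mCherry, 30 and 1 with mCherry-Fc, and 17 and 0 with IL-22. Their medians were 0.31, 0.33 and 0.22, against 0.15, 0.12 and 0.00 for the ribosomal protein genes. Nop56, of the box C/D snoRNP, rose by 0.83 with GFP-mCherry and by 0.87 with mCherry-Fc, and Rrp1b by 0.96, 0.84 and, with IL-22, 0.95. Nop2, an rRNA methyltransferase, rose by 0.74, 0.79 and 0.63. Noc4l, which acts in small subunit maturation, rose by 0.53 with IL-22. In untreated synthetic against untreated natural receptor cells 3 of these 39 were higher and 22 lower, against 8.6% and 6.62% of all genes.

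**Figure D5:**
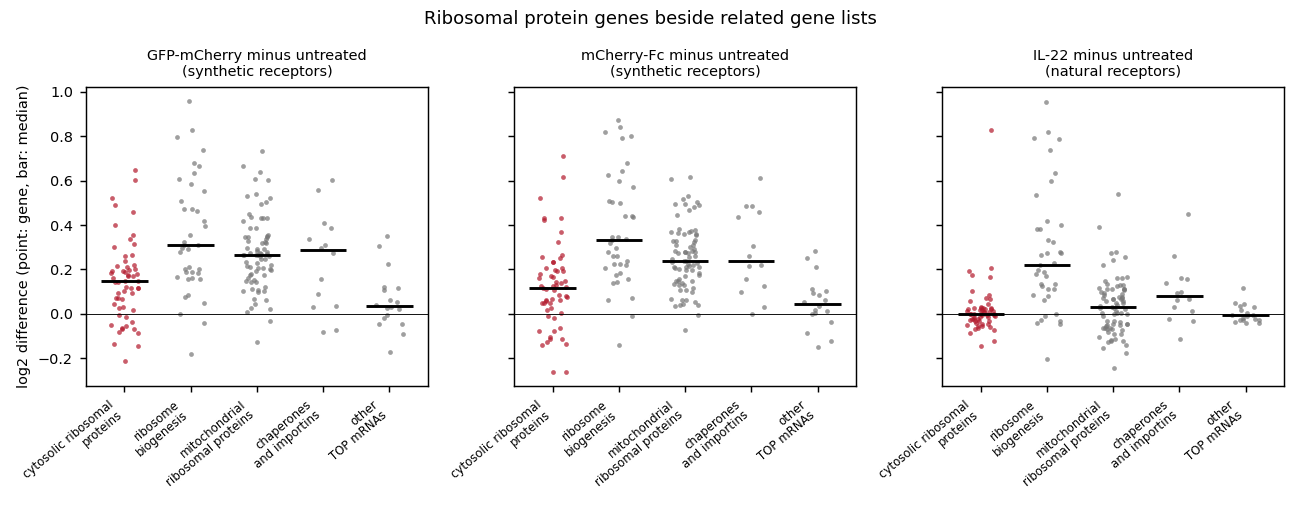
Log2 difference of every measured gene of 5 lists, cytosolic ribosomal proteins in red and the others in grey, with the list's median as a bar, for GFP-mCherry, mCherry-Fc and IL-22 each minus its untreated cells. With IL-22 the ribosomal protein median lies at 0.00 and the ribosome biogenesis median at 0.22.

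Of 77 mitochondrial ribosomal protein genes, 56 rose with GFP-mCherry, 55 with mCherry-Fc and 5 with IL-22, where 1 fell, with medians of 0.26, 0.24 and 0.03. The share with IL-22 is close to that over all genes. Mrpl17 rose by 0.64 and 0.53, Mrpl36 by 0.74 and 0.62 with the synthetic ligands, Mrps28 by 0.67 with GFP-mCherry and Mrps18b by 0.50 with mCherry-Fc. With IL-22 Mrpl33 rose by 0.54, Mrps18b by 0.28 and Mrpl17 by 0.26. Among 18 other genes with TOP mRNAs, mostly translation factors, 3 rose and 1 fell with GFP-mCherry and 3 rose with mCherry-Fc. These were Eif3l, Eef1b2 and Eif3f with both ligands (0.35, 0.31 and 0.22 with GFP-mCherry, 0.25, 0.28 and 0.21 with mCherry-Fc), and none passed with IL-22. The shares of this list that rose with the synthetic ligands are close to those over all genes. Of 14 chaperones and importins of ribosomal proteins, 6, 10 and 1 rose. Aamp, whose yeast counterpart Sqt1 is the chaperone of Rpl10, rose by 0.39 and 0.31, and Heatr3, which helps to import Rpl5 in humans, by 0.56 and 0.49. Grwd1, whose yeast counterpart Rrb1 is the chaperone of Rpl3, rose by 0.60, 0.61 and, with IL-22, 0.45.

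Among 20 regulators of mTORC1 and TOP mRNAs, 1 rose and 3 fell with GFP-mCherry, 4 rose and 2 fell with mCherry-Fc, and 4 rose and 3 fell with IL-22. With the synthetic ligands these shares of a short list are near or below those over all genes. Tsc2, an inhibitor of mTORC1, fell by 0.24 and 0.25 with the synthetic ligands. Its partner Tsc1 fell by 0.19 with GFP-mCherry and by 0.27 with IL-22, and the translation repressor Eif4ebp2 fell by 0.17 with GFP-mCherry. Eif4e, the cap-binding protein, rose by 0.22 and Larp4, which binds poly(A)-binding protein, by 0.24 with mCherry-Fc. With IL-22 Castor1, an arginine sensor upstream of mTORC1, rose by 0.65 and Mtor itself by 0.20. Of 16 p53 targets, 2 rose and 1 fell with GFP-mCherry, 1 rose with mCherry-Fc, and 1 rose and 3 fell with IL-22. Here too the shares with the synthetic ligands are near or below those over all genes. Sesn1, a p53 target that restrains mTORC1, had the smallest p of the list with IL-22 and with GFP-mCherry, in opposite directions. It rose by 0.40 with GFP-mCherry (limma adjusted p 0.00048) and fell by 1.01 with IL-22 (9.42e-09), a difference between the responses of 1.41 (4.73e-09), and with mCherry-Fc it differed by 0.01. Aen, a nuclease, rose by 0.41, 0.57 and 0.44, Mdm2, the ligase that degrades p53, fell by 0.37 with GFP-mCherry, and Trp53inp1 fell by 0.86 with IL-22. Of 4 measured ribosomal protein genes with other names, Rpsa (0.17) and Rpl7l1 (0.15) rose with GFP-mCherry, and none passed with mCherry-Fc or IL-22.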

How the data were processed

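The values are log2 intensities per probe set, which the authors made with Affymetrix Expression Console 4.0 and deposited, per the submitters' processing notes; the algorithm and background correction are not given in the sources used here. Of 35556 probe sets, 21789 had 1 gene symbol, 1621 several and 12146 none in the platform annotation. The brightest single-symbol probe set stood for each of 19938 genes, with no filter on dim genes. One linear model per gene over all 26 arrays in 5 groups was fitted with limma 3.58.1 in R 4.3.3 (lmFit, eBayes, two-sided), and each of 7 comparisons was adjusted after Benjamini and Hochberg over all genes. A gene is said to have risen or fallen where the adjusted p was below 0.05. For arrays, the number of arrays limits the precision. The script was tested on simulated data. Members and lists were chosen with earlier results of these data known.

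The genes named are the 5 largest rises and falls among called members, the stalk proteins and members with known roles outside the ribosome with their paralogs, and the 3 called list genes of smallest p in each ligand's comparison with untreated cells; Rpl8, Rps10, Rps19 and Rpl28 and some list genes were added after their values were seen. Same-numbered arrays deviated together in IL-22 against untreated (3 pairs, r 0.313 to 0.621), mCherry-Fc against untreated cells (3 pairs, r 0.26 to 0.466) and GFP-mCherry against mCherry-Fc (3 pairs, r 0.105 to 0.271). The main counts nonetheless come from the model without a block, and the replicate number entered as a block only as an alternative. That pairing was read from the data and not the labels. Unequal numbers of one range correlated too. Arrays without a same-numbered partner of their receptor type add nothing to a blocked difference. These were mCherry-Fc replicates 8, 10 and 15, IL-22 replicate 1 and untreated natural replicate 4. Alternatives were quantile normalization, median centring, the mean of all probe sets, a filter on dim genes, other variance priors, array weights, only the groups compared, the replicate block, the number range as a term or split, and leaving out each array.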

Additional observations from a re-analysis of the deposited data

Results flagged for a closer look

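Among 95 sets of arrays of one group and gene examined for a single distant array, 6 stood out, and chance gives about 1 in 20. On GFP-mCherry replicate 12, Rpl24 read 11.33 (others 11.05 to 11.14), Rpl38 11.78 (others 11.51 to 11.55) and Rpl10a 13.16 (others 13.05 to 13.08). On the same array the members' median deviation was 0.15 (others 0.05 to 0.08). Without it 22 members rather than 30 rose with GFP-mCherry. Rpl29 read 11.71 on mCherry-Fc replicate 10 (others 11.55 to 11.60), and Rpl26 read 8.12 on IL-22 replicate 1 (others 8.24 to 8.25).

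Responses to a synthetic ligand and to IL-22 differed by a test of the difference (limma, adjusted p below 0.05). For GFP-mCherry minus IL-22 the differences were 0.65 for Rpl24, 0.57 for Rplp1, 0.54 for Rps21, 0.50 for Rps19, 0.46 for Rpl38, 0.43 for Rps27l and 0.20 for Rpl5. The Rpl5 call was lost under quantile normalization (0.12, adjusted p 0.161), with the replicate block (adjusted p 0.12), with only the groups compared (0.0603) and within low numbers (0.171). It was also lost without IL-22 replicate 1 or 2, untreated natural replicate 2 or 5, or GFP-mCherry replicate 12 or 13 (0.0539 to 0.0897). For mCherry-Fc minus IL-22 they were 0.62 for Rpl24, 0.52 for Rps21, 0.47 for Rplp1, 0.41 for Rpl38, 0.35 for Rps27l, -0.25 for Rpl29 and -0.45 for Rpl10l. Outside the ribosomal protein genes, Sesn1 rose with GFP-mCherry and fell with IL-22, a difference of 1.41.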

How the results depend on the processing

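Counts of members past the threshold are given as higher or lower, without the shares over all genes in the same setting. Where they moved by over 1.5 times, the cause was not tested. Quantile normalization gave 2 higher with IL-22 (1 as deposited), 17 higher and 5 lower with GFP-mCherry (30 and 2), 1 lower for the GFP-mCherry minus IL-22 response (0) and 0 lower for mCherry-Fc minus IL-22 (2). Median centring gave 1 lower with GFP-mCherry, 40 higher and 1 lower with mCherry-Fc (24 and 3), 0 lower for mCherry-Fc minus IL-22, and 1 higher between the untreated lines (0). Leaving out dim genes gave 1 lower for mCherry-Fc minus IL-22 and 1 higher between the lines. The trended, robust prior gave 5 lower with mCherry-Fc and 1 higher between the lines, and array weights 2 higher with IL-22. Fitting only the groups compared gave 1 lower with each synthetic ligand and 7 higher and 0 lower for mCherry-Fc minus IL-22 (11 and 2). The replicate block gave 1 lower with mCherry-Fc, 9 higher and 1 lower for GFP-mCherry minus IL-22 (15 and 0), and 6 higher and 1 lower for mCherry-Fc minus IL-22. With GFP-mCherry, where same-numbered arrays did not all deviate together (6 pairs, r -0.146 to 0.417), the block gave 28 higher and 2 lower. Between the untreated lines no paired analysis was possible, because they share no number.

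The number range as a term gave 1 lower for GFP-mCherry against mCherry-Fc (0) and 1 lower for GFP-mCherry minus IL-22. Within low numbers there were 14 higher with GFP-mCherry, 1 lower with mCherry-Fc, 8 higher and 1 lower for GFP-mCherry minus IL-22, 1 lower for mCherry-Fc minus IL-22, and 2 higher and 1 lower between the lines. Within high numbers there were 0 lower with GFP-mCherry, 1 lower with mCherry-Fc, 1 lower for GFP-mCherry against mCherry-Fc, 5 higher for GFP-mCherry minus IL-22, 3 higher and 0 lower for mCherry-Fc minus IL-22, and 1 higher and 4 lower between the lines; the lone IL-22 array there is assumed to vary like the other groups.

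Leaving out 1 array gave 1 to 2 higher and 0 lower with IL-22 (2 without IL-22 replicate 5), 22 to 31 higher and 1 to 2 lower with GFP-mCherry, 20 to 27 higher and 1 to 4 lower with mCherry-Fc, 0 for GFP-mCherry against mCherry-Fc, 9 (without untreated natural replicate 5) to 18 higher and 0 to 1 lower for GFP-mCherry minus IL-22, 7 (without IL-22 replicate 1, 2 or 3 or untreated natural replicate 5) to 15 higher and 0 to 2 lower for mCherry-Fc minus IL-22, and 0 to 1 higher and 0 lower between the lines (1 without untreated synthetic replicate 13). For GFP-mCherry minus IL-22, 10 were higher without IL-22 replicate 1.

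List counts and list genes were computed on the deposited scaling only. Over the named ribosomal protein genes and all alternatives, 2033 values kept their call or had none in either setting. A further 141 lost the call and 15 gained one. No value called in either setting changed its sign, while sign changes of values without a call were not counted. The replicate block changed no call of Rpl12, Rpl24, Rplp1, Rps21 or Rpl38.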
